A study of Rattus norvegicus with 20 samples.

Results

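The cytosolic heat shock protein genes are described here as 10 genes of the 39747 rows of the count table, chosen by symbol: Hsf1, Hsp90aa1, Hsp90ab1, Hspa8, Hspa4, Hsph1, Dnaja1, Dnajb1, Hspb1 and Hspb8. All 10 were present once and passed the filter on low counts in every model. RNA-seq was run on dorsal root ganglia (DRG) of young adult female Sprague-Dawley rats that ate a soy oil diet (SOD) or a fish oil diet (FOD) for 4 weeks before surgery and stayed on it afterwards. In the CCI (chronic constriction injury) groups the left sciatic nerve was loosely tied with 4 ligatures, and in the sham groups (CT) the nerve was only exposed. The study places the collection of the DRG 1 week after surgery. The labels give 1 week of recovery and also 4 weeks of diet after surgery, so the time is not fully settled. Of the 20 libraries, 7 came from the left DRG of shams (SOD-CT, 4; FOD-CT, 3), 7 from the left DRG of CCI rats (SOD-CCI, 3; FOD-CCI, 4) and 6 from the contralateral (right) DRG of 3 CCI rats on each diet whose left DRG was also sequenced. No group ate a standard chow, and the contralateral DRG came from animals with an injured nerve on the other side, so it is a within-rat reference and not a sham tissue.

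Cytosolic heat shock proteins keep other proteins folded. Hsp70 proteins such as Hspa8 bind exposed stretches of unfolded chains, J proteins (Dnaja1, Dnajb1) deliver the client and trigger ATP hydrolysis, and the Hsp110 proteins (Hsph1, Hspa4) exchange the nucleotide so that the client is released. Hsp90 takes over clients that are close to folded, and small heat shock proteins (Hspb1, Hspb8) hold unfolded proteins without using ATP. Hsf1 is the transcription factor that binds heat shock elements, inverted repeats of the unit GAA, in promoters of many of these genes. In sensory neurons Hspb1, also called Hsp27, is known as a gene of the response to axon injury, and its mutations cause hereditary motor neuropathy.

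Promoter sequences (250 bases before to 50 after the annotated start) were available for 8 of the 10 members in the RefSeq table of build GRCr8. Each was searched on both strands for 2 facing units (GAANNTTC or TTCNNGAA, each its own reverse complement) and for 3 units (GAANNTTCNNGAA or its reverse complement TTCNNGAANNTTC, which contain the shorter ones). A 2-unit match was found in 6 of the 8 members and in 15.9% of 33469 promoters of the table. A 3-unit match was found in 3 of the 8, Hspa8 with 2 copies and Hsph1 and Dnaja1 with 1 copy each, and in 0.798% of all promoters. Hspb1 and Dnajb1 held 2 separate 2-unit matches, Hspb8 held 1, and none of these letters were in the windows of Hsp90ab1 and Hspa4. The windows of Hspb1 and Hsph1 are shown because the comparison of the left with the contralateral DRG turns on these 2 genes, Hspb8 as the other small heat shock gene, and Hspa8 as the member with the most matches. Capitals mark the matched letters, 5′ to 3′ in the direction of the gene.
Hspb1 (chr12:26432252-26432551, minus strand): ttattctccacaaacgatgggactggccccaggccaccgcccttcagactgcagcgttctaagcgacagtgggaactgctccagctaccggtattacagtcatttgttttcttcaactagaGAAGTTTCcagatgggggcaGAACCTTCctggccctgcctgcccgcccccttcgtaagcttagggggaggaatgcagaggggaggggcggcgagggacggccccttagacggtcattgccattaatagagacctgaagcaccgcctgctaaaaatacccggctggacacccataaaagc
Hspb8 (chr12:45837058-45837357, plus strand): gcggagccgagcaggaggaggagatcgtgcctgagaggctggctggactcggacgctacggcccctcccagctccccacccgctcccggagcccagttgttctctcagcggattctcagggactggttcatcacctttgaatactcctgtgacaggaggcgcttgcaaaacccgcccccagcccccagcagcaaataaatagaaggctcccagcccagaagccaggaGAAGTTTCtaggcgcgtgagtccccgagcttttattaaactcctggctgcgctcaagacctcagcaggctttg
Hsph1 (chr12:10427118-10427417, plus strand): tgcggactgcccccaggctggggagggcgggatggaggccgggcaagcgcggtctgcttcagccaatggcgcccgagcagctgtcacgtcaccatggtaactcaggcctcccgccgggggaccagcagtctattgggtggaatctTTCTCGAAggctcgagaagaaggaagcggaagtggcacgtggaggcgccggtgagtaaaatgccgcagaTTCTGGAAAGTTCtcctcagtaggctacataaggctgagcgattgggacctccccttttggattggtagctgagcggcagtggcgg
Hspa8 (chr8:50080264-50080563, plus strand): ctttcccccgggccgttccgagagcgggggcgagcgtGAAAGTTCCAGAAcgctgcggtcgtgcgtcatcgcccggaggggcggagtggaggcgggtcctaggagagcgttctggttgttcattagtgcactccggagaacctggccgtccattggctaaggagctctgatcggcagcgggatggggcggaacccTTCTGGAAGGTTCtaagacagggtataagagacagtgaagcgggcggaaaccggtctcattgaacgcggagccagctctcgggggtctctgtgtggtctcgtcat
In Hspb1 the first match ran from base -129 to -122 and the second from -109 to -102, counted from the annotated start. The 3-unit match of Hsph1 lay from -36 to -24, and those of Hspa8 from -213 to -201 and from -55 to -43. A match of letters is a description of the sequence and was not tested as a binding site.

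Library totals ranged from 22547190 to 54437581 counts, and the members held between 336 counts (the lowest library of Hsf1) and 336935 counts (the highest of Hsp90aa1). 5 libraries stood apart in tissue markers. Replicate 1 of FOD-CT, FOD-CCI and contralateral FOD-CCI carried spinal cord transcripts, with a mean log2 CPM of 7.37 to 7.81 over 7 oligodendrocyte and astrocyte genes against -1.55 to 2.57 in the other 17. In contralateral FOD-CCI replicate 1 the 18 sensory neuron markers averaged 4.37 on the same scale, with 3 of them at 0, against 7.93 to 9.31 in the other libraries. SOD-CT replicate 1 carried skeletal muscle transcripts, 13.8% of its counts over 14 genes, FOD-CT replicate 2 carried 3.03%, and the other 18 libraries 1.04% or less. The nerve injury genes (16 genes, among them Atf3 and Gal) averaged 5.41 to 6.93 in 6 of the 7 left CCI libraries, 2.02 to 2.39 in the contralateral ones and -0.09 to 3.98 in the shams. FOD-CCI replicate 1 averaged 2.28 and lay at the contralateral level, so it went against its label. Most results of the members that rest on it are given with and without it. The tests of other chaperone genes and of nerve injury genes, and the correlations over the left libraries, are given only with it. In bulk tissue, fewer cells of a type and less RNA per cell cannot be told apart.

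Measured per kilobase in FPKM (fragments scaled to transcript length and library total), the members spanned from the most abundant transcripts of the ganglion to a rare regulator. Hsp90aa1, the inducible Hsp90 isoform, had a median of 1709 FPKM (826 to 3536 over the 20 libraries), and 15 of 39747 genes had a higher median. Hspa8, the constitutive Hsp70, followed with 1143 (783 to 1410), and Hsp90ab1, the constitutive Hsp90, with 916 (577 to 1092). Dnaja1, a J protein that partners Hspa8, had 384 FPKM, Hspb1 355 and Hspb8 217. Hsph1 at 83.3, Hspa4 at 68.3 and Dnajb1 at 37.0 were lower, and Hsf1 was lowest at 9.11 FPKM. The ranges of neighbours overlapped along the whole order except between Dnajb1 (30.0 or more) and Hsf1 (24.4 or less). Within libraries the order was tighter: Hsp90aa1 lay above Hspa8 in all 20, while Dnaja1 lay above Hspb1 in 14 of 20. Hspb1 varied most in relative terms, from 29.8 FPKM in contralateral FOD-CCI replicate 1 to 904 in FOD-CCI replicate 3, and Hspa4 varied little, from 51.3 to 80.4.

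**Figure D1:**
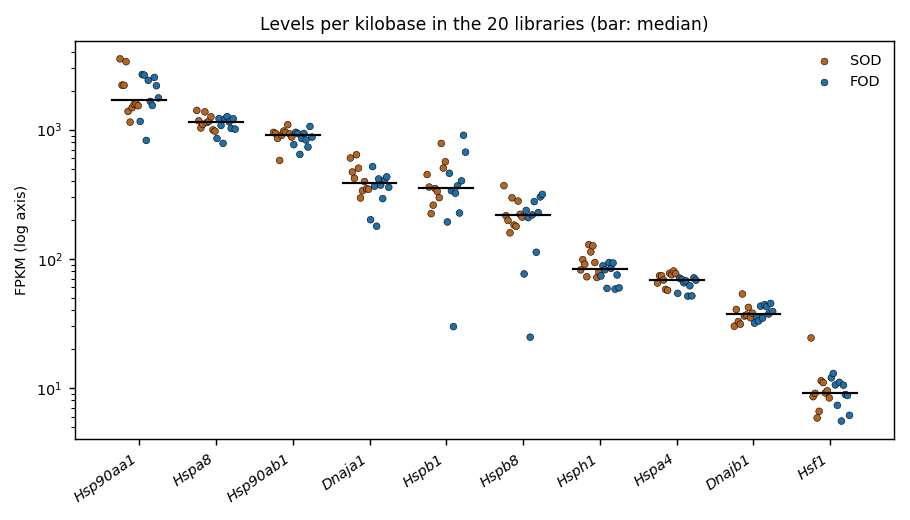
FPKM of the 10 genes in the 20 libraries on a log axis, ordered by their median (black bar), with SOD libraries in brown and FOD libraries in blue. Hsp90aa1 was highest with a median of 1709 and Hsf1 lowest with 9.11, and only Hsf1 was separated from its neighbour.

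The first question was whether the DRG of the ligated side differed from the opposite DRG of the same rat, tested over 6 rats with the rat as a block. Hspb1 was higher on the left in 6 of 6 rats, and it was the member with the largest difference. Levels are CPM (counts scaled to a common library size with TMM factors), and a gene was called at an adjusted p of at most 0.1 with a fold of at least 1.2. No member was called by edgeR's quasi-likelihood test, 1 of 10 (Hspb1) had an unadjusted p under 0.05, and DESeq2 called 1 of 10, again Hspb1. Over all 14549 genes tested, edgeR called 0.962%, DESeq2 called 5.43%, and 11.6% had an unadjusted p under 0.05.

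In the SOD rats, Hspb1 was at 711, 455 and 512 CPM in the left DRG of rats 1 to 3 and at 324, 298 and 277 CPM in their contralateral DRG. In the FOD rats 1 to 3, the left DRG had 205, 354 and 837 CPM and the contralateral DRG 26.0, 285 and 320.1 CPM. The left and contralateral ranges did not overlap in SOD rats and overlapped in FOD rats, where the lowest left value belonged to the left library with spinal cord transcripts. Left to contralateral ratios ran from 1.24 to 7.87 with a median of 2.02, and the ratio of 7.87 came from the rat whose contralateral library was poor in neuron markers. The log2 fold change over both diets was 1.2 ± 0.30 (SE), with an adjusted p of 0.169 by edgeR. An exact sign-change permutation test over the 6 rats gave p = 0.031, the smallest it can give, and 5.24% of all genes were higher on the left in all 6 rats. Without that rat the log2 fold change was 0.85, and edgeR called Hspb1 higher with an adjusted p of 0.0267 over the 5 remaining rats, in which 10.4% of all genes were higher on the left throughout. DESeq2 gave 1.19 with an adjusted p of 0.000249 over all 6 rats. Across all alternatives run, the adjusted p of Hspb1 ranged from 0.000249 to 0.662.

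By diet, the log2 fold change of Hspb1 was 0.90 ± 0.41 in SOD rats (adjusted p = 0.598) and 1.49 ± 0.44 in FOD rats (adjusted p = 0.558), both by edgeR. The difference between the diets was 0.59 ± 0.59 (adjusted p = 0.997), and it was -0.10 without the rat with spinal cord transcripts. In FOD rats without it, Hspb1 differed by 0.80 on the log2 scale. In SOD rats 1 member (Hsph1) and in FOD rats 1 member (Hspb1) had an unadjusted p under 0.05, against 8.48% and 6.96% of all genes, and 0 members had one for the difference between diets (2.91% of all genes). edgeR called 0 members in these 3 comparisons (0.131%, 0.0137% and 0% of all genes), and DESeq2 called 0, 1 and 0 (3.24%, 1.81% and 0.412%), the 1 being Hspb1 in FOD rats. A difference of Hspb1 between the diets was not detectable, its SE being as large as the estimate.

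Hsph1, the stress-inducible Hsp110, went the other way in 5 of 6 rats. In SOD rats it was at 327, 249 and 275 CPM on the left and 459, 388 and 452 CPM on the contralateral side. In FOD rats it was at 323, 197 and 267 CPM on the left and 198, 319 and 283 CPM on the contralateral side. The sides did not overlap in SOD rats, in which all 3 left values were lower, as they were for 21.5% of all genes, and they overlapped in FOD rats. The rat that went the opposite way was FOD replicate 1. The edgeR log2 fold change was -0.33 ± 0.18 over both diets (adjusted p = 0.543) and -0.59 ± 0.26 in SOD rats (adjusted p = 0.589). FOD rats gave -0.07 ± 0.26, and -0.44 without FOD replicate 1. Without FOD replicate 1 the both-diet value was -0.51, and edgeR called Hsph1 lower with an adjusted p of 0.0743. In those 5 rats Hsph1 was lower on the left throughout, as were 9.82% of all genes.

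No other member was called between the sides over both diets by edgeR or DESeq2. Hsp90aa1 was higher on the left in 6 of 6 rats with ratios from 1.01 to 1.94. The exact sign-change permutation test over the 6 rats gave p = 0.031, the smallest it can give. Any gene higher in all 6 rats gets that p, which holds for 5.24% of all genes. The log2 fold change of Hsp90aa1 was 0.35 ± 0.16 (adjusted p = 0.451 by edgeR), and 0.23 (adjusted p = 0.342 by edgeR) without FOD rat 1. Its left levels in rats 1 to 3 were 4473, 4470.2 and 4349 CPM with SOD and 4359, 7003 and 6345 CPM with FOD. The contralateral levels were 4024, 3199.8 and 4317 CPM with SOD and 2251, 6682 and 4519.9 CPM with FOD. The ratios were small in most rats, the smallest of them in SOD rat 3 and the largest in FOD rat 1. Hspb8, a small heat shock protein that works with Bag3 in selective autophagy, was higher in 5 of 6 rats at 0.45 ± 0.28, and its ratio of 4.72 in FOD rat 1 stood above 0.925 to 1.22 in the other 5. Without FOD rat 1 the log2 fold change of Hspb8 was 0.11. Hspa4 (0.15), Dnaja1 (0.14), Hsf1 (0.12), Hsp90ab1 (0.07), Dnajb1 (-0.03) and Hspa8 (-0.05) differed by at most 0.15 on the log2 scale, with SEs of 0.12 to 0.20. Without FOD rat 1 they ran from -0.17 (Hspa8) to 0.16 (Hspa4). The median of the 10 members was 0.13 against 0.03 over all genes tested, and 0.04 for the members without FOD rat 1.

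**Figure D2:**
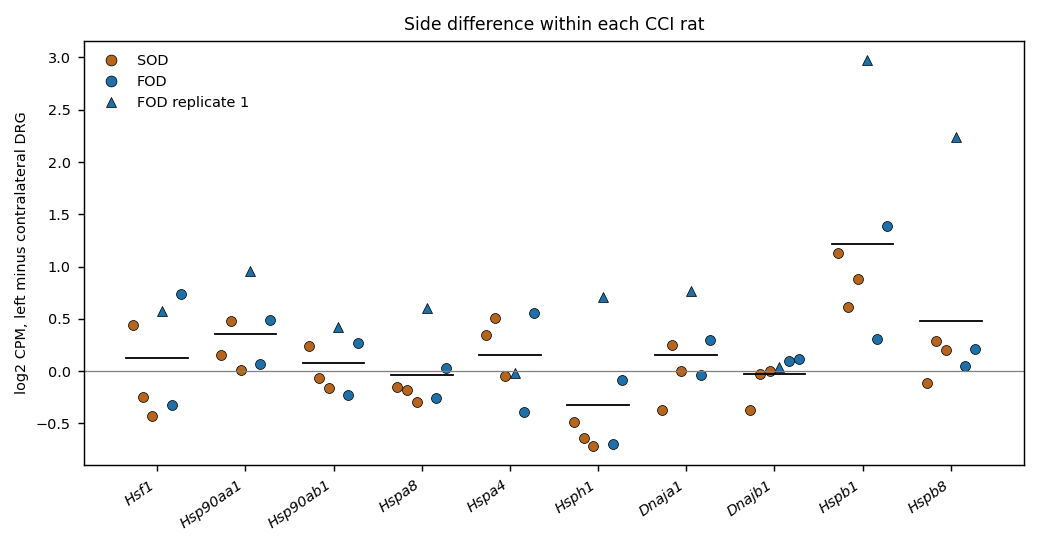
Difference in log2 CPM between the left and the contralateral DRG of each CCI rat (point) for the 10 genes, with the mean as a black bar, SOD rats in brown, FOD rats in blue and FOD replicate 1 as a triangle. Hspb1 lay above 0 in 6 of 6 rats, and the triangle was the highest point for 7 of the 10 genes, the exceptions being Dnajb1, Hsf1 and Hspa4.

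The second question was how the injured DRG compared with the DRG of sham rats on the same diet, tested on the 14 left libraries. With SOD, Hsp90aa1 and Dnaja1 were lower and Hspb1 and Hspa4 higher in every SOD-CCI library than in any SOD-CT library, while no member passed the test. Thus 4 of 10 members did not overlap between the groups in TMM-scaled CPM, as did 17.6% of all 14484 genes (9.54% higher and 8.1% lower with injury). Dnaja1 and Hspa4 did overlap on plain library totals, as given below. edgeR called 0 members, with 0% called over all genes, DESeq2 also called 0 members with 4.1% of all genes, and 2 members (Hsp90aa1 and Hspb1) had an unadjusted p under 0.05 against 13.8% of all genes. The same 4 members did not overlap when the muscle-rich SOD-CT replicate 1 was left out, and the share of all genes was then 22.6%.

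Hsp90aa1 was at 9403, 6322, 6343 and 9376 CPM in SOD-CT and at 4473, 4470.2 and 4349 CPM in SOD-CCI. The sham values fell into a higher and a lower pair and the 3 injured values lay close together, all under the sham range. The edgeR log2 fold change was -0.82 ± 0.33 (adjusted p = 0.320), with adjusted p-values from 0.104 to 0.647 over the alternatives run. The value of 9403 in SOD-CT replicate 1 depended on scaling, because TMM reduced that library's size by a factor of 0.658. On plain library totals it was 6184 CPM, and the shams (6184 to 9143) still lay above SOD-CCI (4499 to 4843).

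Hspb1 was at 382, 328, 205 and 232 CPM in SOD-CT and at 711, 455 and 512 CPM in SOD-CCI. Each injured library lay above the highest sham. The log2 fold change was 0.97 ± 0.42 (adjusted p = 0.339 by edgeR), and the adjusted p ranged from 0.129 to 0.647 over the alternatives. The 382 CPM belonged to the library with muscle transcripts, without which the log2 fold change was 1.14. Without SOD-CCI replicate 1, the highest injured library, it was 0.77, the lowest over single libraries left out.

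Dnaja1 was at 927, 776, 697 and 1032 CPM in SOD-CT and at 652, 569 and 567 CPM in SOD-CCI. Its log2 fold change was -0.52 ± 0.29 (adjusted p = 0.420 by edgeR), although no injured library reached the lowest sham on this scale. On plain library totals the groups of Dnaja1 overlapped, SOD-CT replicate 1 being at 610 CPM and SOD-CCI at 656, 617 and 598 CPM. Hspa4 was at 279.8, 342, 344 and 309.9 CPM against 348, 369 and 353 CPM, which is a log2 fold change of 0.17 ± 0.18. The injured values of Hspa4 began only just above the highest sham. On plain library totals they overlapped, the lowest SOD-CCI value being 349.8 CPM and the highest SOD-CT value 359.8 CPM.

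The other members overlapped between SOD-CCI and SOD-CT. Hsf1 was at 56.2, 21.2, 22.6 and 14.2 CPM in SOD-CT and at 22.6, 23.2 and 20.6 CPM in SOD-CCI, and the highest value came from the library with muscle transcripts. Its log2 fold change of -0.36 ± 0.38 turned to 0.21 without that library. Hsp90ab1 differed by 0.25 ± 0.24, Dnajb1, a J protein induced by stress, by 0.22 ± 0.17, Hspb8 by 0.05 ± 0.41, Hsph1 by -0.05 ± 0.21 and Hspa8 by -0.10 ± 0.22. The median over the 10 members was 0.00 and over all genes -0.01.

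With FOD, 0 members were called by edgeR or DESeq2 (0% and 0.145% of all genes) with 0 members at an unadjusted p under 0.05 (4.52% of all genes). Hspb1 was at 174, 411 and 305 CPM in FOD-CT and at 205, 354, 837 and 595 CPM in FOD-CCI. The groups overlapped, and the lowest library of each was the one with spinal cord transcripts. The log2 fold change was 0.74 ± 0.43 (adjusted p = 1.00 by edgeR), 1.00 without FOD-CCI replicate 1 and 0.72 without all 3 libraries with spinal cord transcripts. The highest FOD-CT value belonged to replicate 2, the library with 3.03% muscle transcripts, without which the log2 fold change was 1.06. The part of the muscle transcripts was not tested. Without FOD-CCI replicate 3, the highest injured library, the log2 fold change was 0.38, the lowest over single libraries left out.

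Dnajb1 and Hsf1 were the 2 of 10 members that did not overlap between FOD-CCI and FOD-CT, against 4.59% of all genes (2.47% higher and 2.12% lower). Dnajb1 was at 70.1, 77.8 and 72.9 CPM in FOD-CT and at 94.0, 80.5, 102 and 84.9 CPM in FOD-CCI, with a log2 fold change of 0.29 ± 0.17. Hsf1 was at 29.4, 31.4 and 25.9 CPM in FOD-CT and at 25.8, 21.2, 22.0 and 14.8 CPM in FOD-CCI, with a log2 fold change of -0.47 ± 0.37. Both separations were narrow, and the adjusted p of both was 1.00 by edgeR. Without the libraries with spinal cord transcripts 4 of 10 members did not overlap, Hsp90aa1 and Hsph1 being lower as well, and 28.6% of all genes then did not overlap with 3 libraries against 2. Hsp90aa1, at 3273, 7501 and 7492 CPM in FOD-CT and 4359, 7003, 6345 and 4897 CPM in FOD-CCI, differed by -0.11 ± 0.32. Its lowest value in each group was again the library with spinal cord transcripts, and the log2 fold change was -0.31 without all 3 of these and -0.41 without FOD-CT replicate 1 alone. Hspb8 differed by 0.46 ± 0.41, by 0.75 without FOD-CT replicate 2 and by 0.10 without FOD-CT replicate 1. Hsph1 differed by -0.19 ± 0.21, and by -0.35 without FOD-CCI replicate 1.

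**Figure D3:**
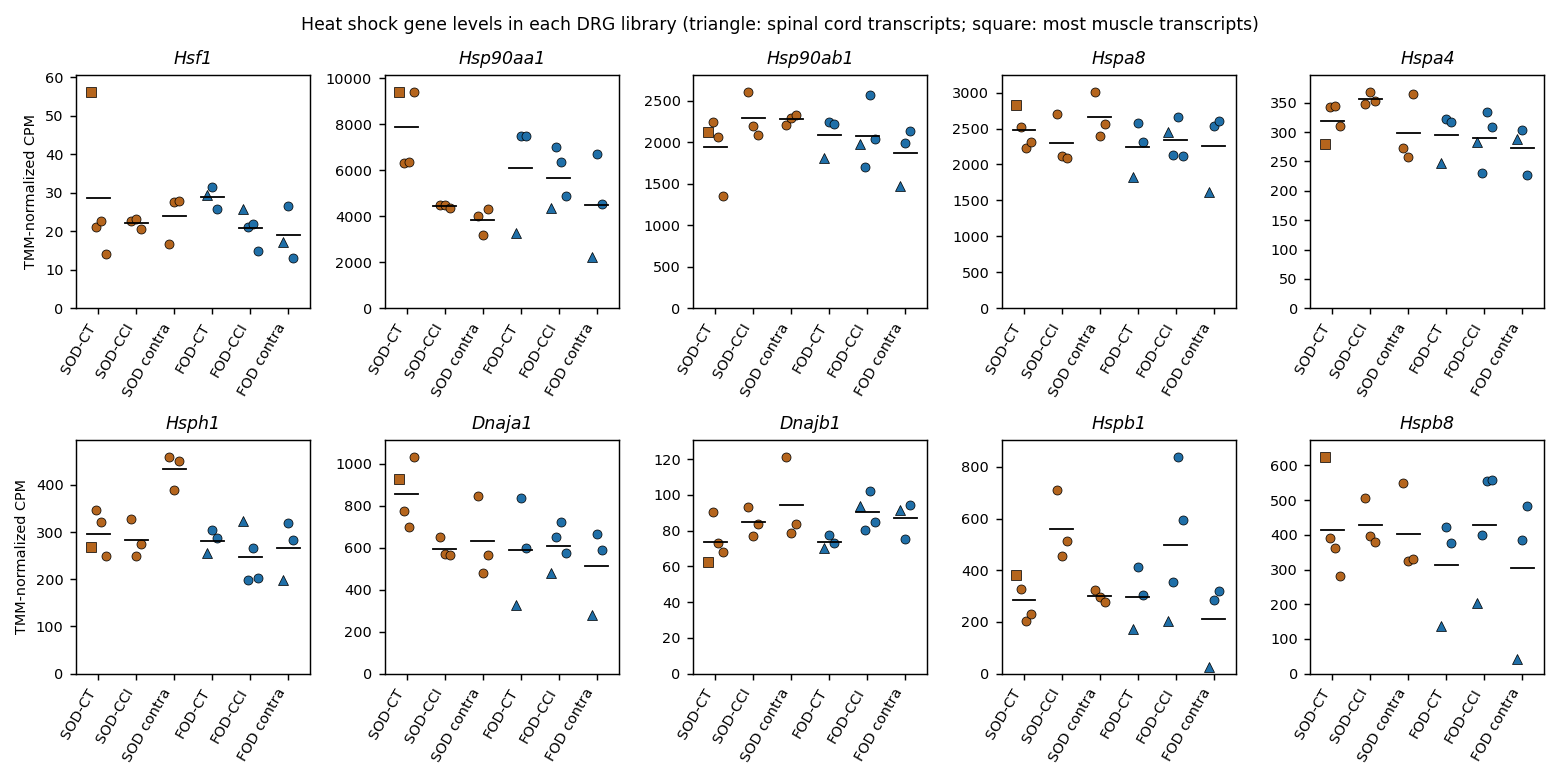
TMM-normalized CPM of each gene in every library by group (contra: contralateral DRG of CCI rats), with the group mean as a bar, triangles for the 3 libraries with spinal cord transcripts and a square for SOD-CT replicate 1. All 3 SOD-CCI points of Hspb1 (455 to 711) lay above the 4 SOD-CT points (205 to 382), and those of Hsp90aa1 lay below.

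Diet was compared within the injured and within the sham groups. In FOD-CCI against SOD-CCI, the log2 fold changes of the members ran from -0.29 ± 0.18 for Hspa4 to 0.36 ± 0.32 for Hsp90aa1, and Hspb1 differed by -0.16 ± 0.42. The Hspb1 value was 0.09 without FOD-CCI replicate 1, the opposite sign. Hspa4 was at 284, 231, 335 and 308 CPM in FOD-CCI, under the 348 to 369 CPM of SOD-CCI, and it was the 1 member of 10 that did not overlap, against 14% of all genes. Without FOD-CCI replicate 1, Hsp90aa1 did not overlap either, being higher with FOD (log2 fold change 0.46), and 22.2% of all genes then did not overlap. In FOD-CT against SOD-CT the members ran from -0.53 ± 0.29 for Dnaja1 to 0.12 ± 0.24 for Hsp90ab1, with Hsp90aa1 at -0.35 ± 0.32, and all 10 overlapped (3.2% of all genes did not). Without FOD-CT replicate 1, the library with spinal cord transcripts, these values were -0.24 for Dnaja1 and -0.051 for Hsp90aa1. Neither edgeR nor DESeq2 called a member in either diet comparison, and 0 members had an unadjusted p under 0.05. The shares of all genes called were 0% by edgeR in both, 0.0138% by DESeq2 after injury and 0% by DESeq2 without injury, with unadjusted p under 0.05 for 5.4% and 3.39%.

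The change with injury was also compared between diets by an interaction term. The largest interactions were 0.71 ± 0.46 for Hsp90aa1 (adjusted p = 0.894 by edgeR) and 0.56 ± 0.40 for Dnaja1. They were 0.41 and 0.27 without FOD-CT replicate 1, the library with spinal cord transcripts. At the other end stood Hsp90ab1 with -0.26 ± 0.33. No interaction was called by edgeR (0% of all genes, 5.01% at an unadjusted p under 0.05) or by DESeq2 (0.29%), and 0 members had an unadjusted p under 0.05, so the injury values of the 2 diets were not shown to differ.

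**Figure D4:**
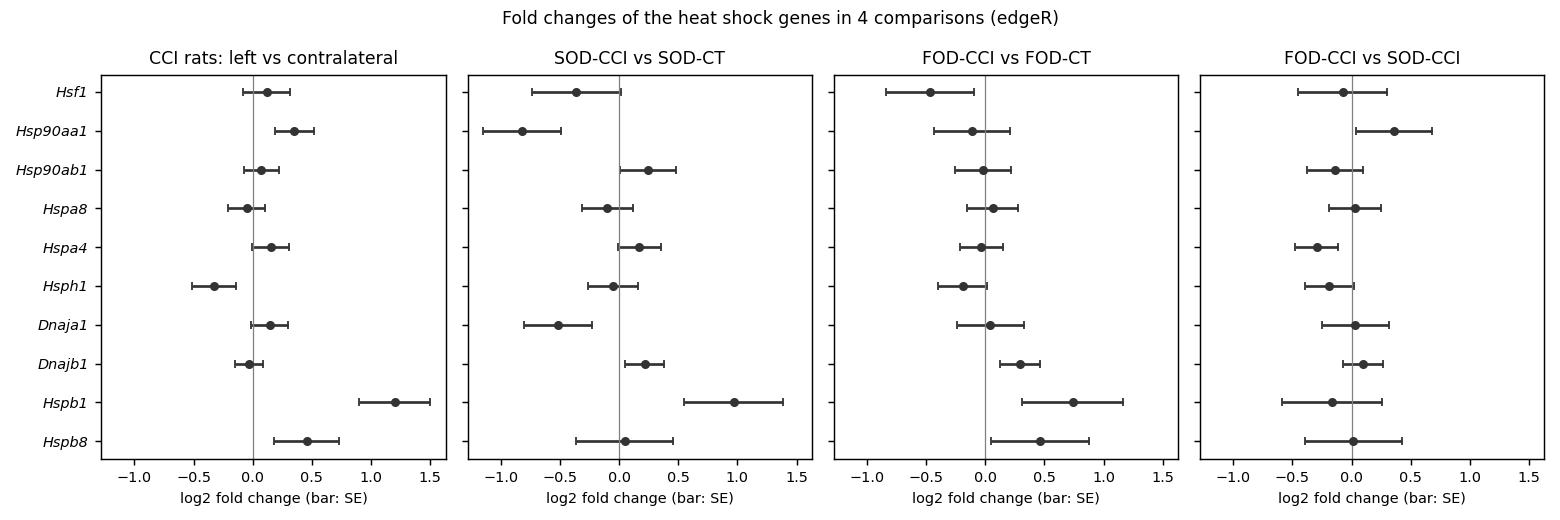
edgeR log2 fold change of each gene (point) with its SE (bar) in 4 comparisons. Hspb1 was the gene farthest to the right in the left to contralateral comparison (1.2) and in both injury comparisons (0.97 and 0.74), and Hsp90aa1 the farthest to the left in SOD-CCI against SOD-CT (-0.82).

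The contralateral DRG of CCI rats was compared with sham DRG on 13 libraries. These comparisons share sham libraries with the injury comparisons and contralateral libraries with the comparison of sides. Hsp90aa1 was at 4024, 3199.8 and 4317 CPM in the SOD contralateral DRG, below the lowest SOD-CT library (6322), with a log2 fold change of -1.07 ± 0.42 (adjusted p = 0.70 by edgeR). The shams thus lay above both the injured and the contralateral DRG of the SOD-CCI rats. Hsph1 was at 459, 388 and 452 CPM in the SOD contralateral DRG and at 268, 346, 321 and 249 CPM in SOD-CT, a log2 fold change of 0.52 ± 0.22 (adjusted p = 0.70 by edgeR). All 3 contralateral values lay above the shams, and the SOD-CCI values (249 to 327) overlapped the sham range. These 2 of 10 members did not overlap, against 8.67% of all genes, and they were the 2 with an unadjusted p under 0.05 (7.06% of all genes).

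With FOD, no member separated the contralateral from the sham DRG (9.06% of all genes did), and the values ran from -0.57 ± 0.46 for Hsf1 to 0.28 ± 0.23 for Dnajb1. Without the libraries with spinal cord transcripts, which left 2 against 2, Hsp90aa1, Hsp90ab1 and Hspa4 were lower in the contralateral DRG without overlap, as 36.1% of all genes then did not overlap. On plain library totals Hsp90ab1 and Hspa4 overlapped there. Between the diets in the contralateral DRG, Hsph1 was at 198, 319 and 283 CPM with FOD against 388 to 459 CPM with SOD, a log2 fold change of -0.61 ± 0.24 (adjusted p = 0.697 by edgeR). The groups did not overlap, as for 17.6% of all genes, and Hsp90ab1 was the other member of which this held, at 1473, 1989 and 2142 CPM with FOD and 2207, 2290.5 and 2330.0 CPM with SOD. On plain library totals Hsp90ab1 overlapped, with 2168 CPM in FOD replicate 3 and 2099 CPM in SOD replicate 1. The lowest value of Hsph1 and of Hsp90ab1 was in the library poor in neuron markers. Hsp90aa1 gave the highest value in that comparison, 0.31 ± 0.44. Without that library it was 0.62 and the groups of Hsp90aa1 did not overlap either, with 30.3% of all genes not overlapping. edgeR called 0 members and 0% of all genes in these 3 comparisons, and DESeq2 also called 0 members, with 0.371%, 0% and 0.414% of all genes. Members with an unadjusted p under 0.05 numbered 0 in FOD contralateral against sham (1.71% of all genes) and 1, Hsph1, between the diets (7.1%).

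The wider chaperone network was read from lists of other Hsp70 and small heat shock genes, J proteins, cochaperones of Hsp70 and Hsp90, the TRiC and prefoldin complexes, heat shock factors, and chaperones of the endoplasmic reticulum and mitochondria. Of the 61 other cytosolic genes tested between the sides over both diets, 0 were called by edgeR and 1 by DESeq2, and 8 had an unadjusted p under 0.05, 3 of them higher on the left. Their median was -0.04. Over all 14549 genes, edgeR called 0.962%, DESeq2 called 5.43%, and 11.6% had an unadjusted p under 0.05. The nerve injury list, by contrast, had 10 of 13 tested genes called higher, with a median of 2.10. Among these, Gal, a neuropeptide, had a log2 fold change of 3.66 ± 0.43 (adjusted p = 0.0159 by edgeR) and Atf3, a transcription factor induced by axon damage, 4.19 ± 0.83 (adjusted p = 0.0884). Sprr1a was not among the genes tested.

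The 5 chaperone genes with the smallest p between the sides were Hspb6, Bag2, Dnajc2, Dnajb4 and Fkbp4. Hspb6, another small heat shock gene, had a log2 fold change of -0.87 ± 0.26, and Bag2, which limits ubiquitination of Hsp70 clients, 0.69 ± 0.20. Dnajc2, a J protein of the ribosome, gave 0.55 ± 0.17, Dnajb4, a J protein of the cytosol, -0.39 ± 0.15, and Fkbp4, an Hsp90 cochaperone, -0.39 ± 0.17. edgeR called none of them (lowest adjusted p = 0.239), and DESeq2 called Hspb6 lower. All 3 other small heat shock genes tested were below 0, whereas Hspb1 and Hspb8 were above it. The skeletal muscle markers summed to at most 74.5 CPM in SOD-CCI and 279 CPM in FOD-CCI. They reached 2608 CPM (median 15.8) in the SOD and 10284 CPM (median 563) in the FOD contralateral DRG. The part of muscle transcripts in these side differences was not tested.

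In SOD-CCI against SOD-CT, 62 other cytosolic chaperone genes were tested, 0 were called by edgeR and 6 by DESeq2, and 11 had an unadjusted p under 0.05, 1 of them higher. Over all 14484 genes, edgeR called 0%, DESeq2 called 4.1%, and 13.8% had an unadjusted p under 0.05. Pfdn5 (-1.63 ± 0.48), Pfdn4 (-1.41 ± 0.44) and Pfdn1 (-1.17 ± 0.36), subunits of prefoldin, which passes nascent actin and tubulin to TRiC, had 3 of the 5 smallest p. Hspe1, the mitochondrial cochaperonin, gave -1.06 ± 0.35 and Hspb6 -5.20 ± 1.67, and all 5 had an adjusted p of 0.266 or 0.271 by edgeR. Hspb6 and Cryab (-1.45 ± 0.51) are abundant in muscle, and the muscle markers were high in SOD-CT replicate 1; their part in these values was not tested. The stress-inducible Hsp70 genes Hspa1a (-1.15 ± 0.58) and Hspa1b (0.33 ± 0.55) had values of opposite sign.

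**Figure D5:**
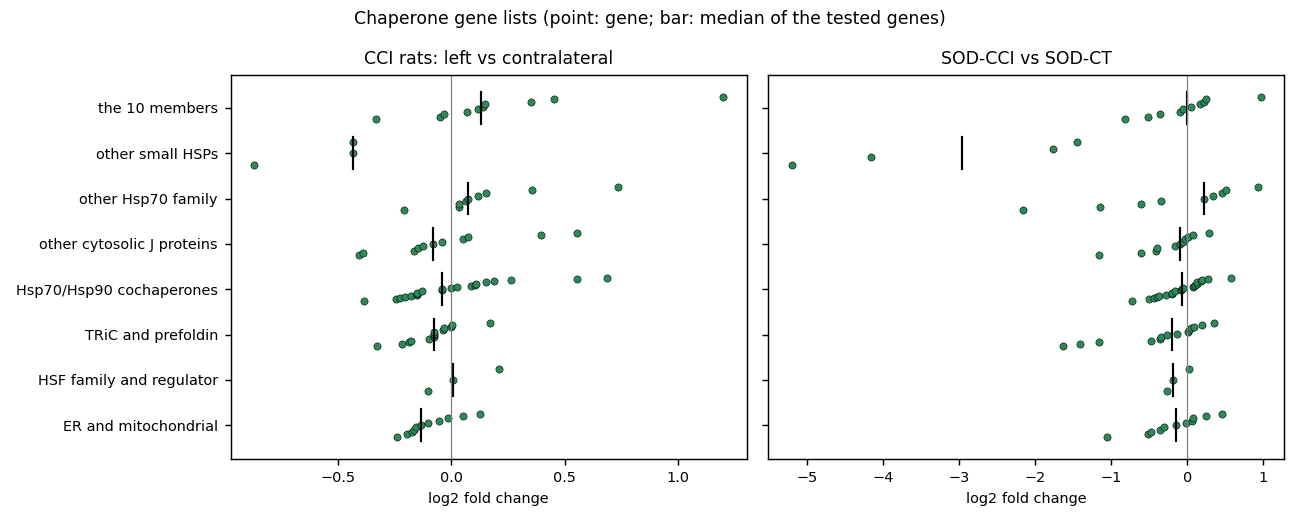
edgeR log2 fold changes of the 10 members and of 7 other chaperone lists (point: gene, bar: median of the tested genes) between the sides in CCI rats and between SOD-CCI and SOD-CT. The list medians lay near 0 except for the other small heat shock genes, and Hspb1 was the member farthest to the right in both panels.

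The genes whose level followed each member most closely were taken by Spearman's rho over the 14 left libraries, which share groups, depth and tissue makeup, and are given as a description. Hspb1 was followed by Anxa11 (rho = 0.95), Tspan13 (0.95) and Mmgt1 (0.94). For Hspb8 the nearest were Pdlim7 (0.96), Csrp3 (0.95) and Lmna (0.93), the first 2 of which are known from muscle. Hsp90aa1 was nearest to Mrpl1 (0.97), Ufm1 (0.96) and Bnip3 (0.95), and Dnaja1 to Dynlt3 (0.96), Birc2 (0.94) and Dnajc10 (0.93). Hspa4 was nearest to Hspa12a (0.95). Hsph1 was nearest to Slc45a4 (0.89), Dnajb1 to Ap2m1 (0.91), Hsf1 to Poldip2 (0.90), Hsp90ab1 to Ndufaf1 (0.91) and Hspa8 to the unnamed locus LOC100912608 (0.92). No member was among the 3 nearest genes of another member.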

How the data were processed

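RNA-seq libraries of 20 rat DRG were analysed from the count table that the authors deposited, made per the labels and methods with fastp, HISAT2 and featureCounts 1.5.0-p3. The genome build and the strand setting of the counting were not given in the sources used here. The deposited FPKM values, made by the authors from the same counts, were used only for levels. Counts were tested with edgeR 4.0.16 (R 4.3.3; TMM scaling, quasi-likelihood test) on genes that reached 10 counts in 90% or more of a model's libraries. The left to contralateral model held 12 libraries with the rat as a block, since the labels tie both DRG to 1 animal; deviations of the 2 sides correlated by 0.11 to 0.43 in the 6 rats. The left model held 14 libraries and the contralateral to sham model 13. p-values were Benjamini-Hochberg adjusted over all genes tested. DESeq2 1.42.0 was the alternative test. Permutation tests were exact and two-sided. Scripts were tested on simulated data. Copies of Hspa8 elsewhere in the table held 2.13% to 3.16% of its counts and those of Hsp90aa1 0.585% to 1.05%. Per the labels each library came from 1 rat; no sequencing batch was given. The members and lists were chosen with earlier results of these data known. Named were all members and, from the chaperone lists, called genes or else the 5 with the smallest p in 2 comparisons; Cryab, Hspa1a and Hspa1b were named after their values were seen. Coordinates are of RefSeq promoters only.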

Additional observations from a re-analysis of the deposited data

How the results depend on the processing

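Each group held 3 or 4 libraries, some only 2 once libraries were left out, and 5 libraries carried spinal cord or muscle transcripts. With these libraries, moderate differences in a member could not be resolved, although counting error was small. Among 901 values of members under the alternatives, 866 kept direction and side of the threshold, 10 passed it and 25 turned; the causes were not tested. Medians over the members moved beyond the replicate spread in 2 of 220. Between the sides, leaving out the libraries with spinal cord transcripts and leaving out FOD rat 1 were the same fit. Its values are counted under both settings, and both moved medians came from it.

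Between the sides (SOD rats 19, FOD rats 2, both diets 140 genes called), no filter on low counts gave 220, 61 and 456 genes with 1 member (Hspb1) called over both diets, and 3 genes for the difference between diets. DESeq2 gave 472, 264, 790 and 60, with 1 member called in FOD rats and 1 over both diets. Without the libraries with spinal cord transcripts the counts were 471, 137 and 1146, with 1 member called in SOD rats (Hspb1, adjusted p = 0.0817 by edgeR) and 2 over both diets, and the members' median difference between diets was 0.0043 (0.29 with all). There Hspb1 was -0.10 and Hspb8 -0.072. No replicate block gave 0, 0 and 10 genes. Leaving out 1 rat at a time gave 0 to 471, 0 to 137 and 8 to 1146 genes, the highest without FOD rat 1 and the lowest over both diets without SOD rat 1, and 0 to 1 (SOD) and 0 to 2 (both diets) members called, 1 of them (Hspb1, 1.51, adjusted p = 0.0731) without FOD rat 2. The median difference between diets then ranged from 0.0043 to 0.47, and values that turned ranged from -0.44 to 0.25 (Hsph1, FOD), -0.17 to 0.041 (Hspa8), -0.078 to 0.030 (Dnajb1), -0.011 to 0.27 (Hsf1), and, for the difference between diets, -0.10 to 1.22 (Hspb1) and -0.072 to 1.01 (Hspb8).

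For injury and diet, where 0 genes were called, DESeq2 called 594 (SOD injury), 21 (FOD injury), 2 (diet after injury), 42 (interaction), 52 (SOD contralateral against sham) and 58 (diet, contralateral), and 0 members in each. SOD injury gave 87 genes without the libraries with spinal cord transcripts and 1 with the replicate block. Leaving these and SOD-CT replicate 1 out (FOD-CT replicate 2, with fewer muscle transcripts, was kept), chosen after seeing the data, gave 200 (SOD injury) and 526 (FOD injury). Leaving out 1 library gave 0 to 47 (SOD injury) and 0 to 43 (FOD injury), the highest without FOD-CCI replicate 1. Values that turned were Hspa4 in SOD injury (-0.0075 with the gene length correction), Hspb1 for diet after injury (0.094 without the spinal cord libraries, 0.097 without these and the muscle library), and, without these and the muscle library, Hsf1 in SOD injury (0.21) and Hsp90aa1 for diet without injury (0.054). Over single libraries left out, the ranges that crossed 0 were -0.59 to 0.21 (Hsf1), -0.095 to 0.32 (Hspb8) and -0.16 to 0.033 (Hsph1) in SOD injury, -0.41 to 0.079 (Hsp90aa1, FOD injury), -0.51 to 0.095 (Hspb1, diet after injury), -0.014 to 0.22 (Hsp90ab1, diet without injury) and -0.096 to 0.62 (Hsp90aa1, diet in contralateral DRG).

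Deviations of FOD-CT correlated with those of the same replicate number in FOD-CCI (r = 0.19 to 0.43) and in the FOD contralateral DRG (0.19 to 0.57). These numbers name different rats, and replicate 1 of each of these groups carried spinal cord transcripts, whose part was not tested. With the replicate block Hspb1 in FOD injury was 0.71, and the block changed no call of a member. The order of the levels was kept by 10 of 10 members on CPM per kilobase.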

Other observations

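The 4 ratios of paired members were chosen after their values were seen and are given as a description without p-values, as FPKM ratios within a library. How often ratios of other gene pairs separate the same groups was not counted. Hsp90aa1 to Hsp90ab1, the inducible to the constitutive Hsp90, was 3.62 ± 1.58 (SD, n = 4) in SOD-CT, 1.63 ± 0.17 (n = 3) in SOD-CCI and 1.42 ± 0.21 (n = 3) in the SOD contralateral DRG. The lowest sham ratio was 2.37 and the highest ratio in either DRG of the SOD-CCI rats was 1.75. With FOD the ratio was 2.39 ± 0.76 in the shams and 2.35 ± 0.75 in the injured DRG, which overlapped. The FOD shams had 1.51 in the library with spinal cord transcripts and 2.81 and 2.84 in the others. All FOD-CCI ratios (1.85 or more) lay above those of SOD-CCI.

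Hspb1 to Hspb8 was 1.41 ± 0.28 in SOD-CT and 2.59 ± 0.27 in SOD-CCI, again without overlap. Hspb8 itself averaged 415 CPM in SOD-CT and 428 CPM in SOD-CCI. In FOD-CT and FOD-CCI the ratio was 2.03 ± 0.46 and 2.22 ± 0.54, which overlapped. It was 1.33 ± 0.13 in the FOD contralateral DRG, below the FOD-CT range. In the FOD contralateral library poor in neuron markers, Hspb1 was at 26.0 CPM and Hspb8 at 42.9 CPM, the lowest values of both genes among the 20 libraries.

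The J proteins Dnaja1 to Dnajb1 gave 16.3 ± 4.70 in SOD-CT and 9.51 ± 0.43 in SOD-CCI without overlap, and 10.7 ± 4.13 in FOD-CT and 9.13 ± 1.68 in FOD-CCI with overlap. The lowest ratio of each FOD group, 6.32 in FOD-CT and 6.88 in FOD-CCI, was in its library with spinal cord transcripts. Without these libraries it was 14.6 and 11.1 in FOD-CT and 10.9, 9.57 and 9.16 in FOD-CCI, lower with injury and without overlap. The Hsp110 genes Hsph1 to Hspa4 gave 1.22 ± 0.12 in SOD-CT and 1.05 ± 0.18 in SOD-CCI, which overlapped, and 1.27 ± 0.089 in FOD-CT and 1.14 ± 0.26 in FOD-CCI, which also overlapped. Without the libraries with spinal cord transcripts it was 1.25 and 1.19 in FOD-CT and 1.13, 1.05 and 0.872 in FOD-CCI, without overlap. In the SOD contralateral DRG that ratio was 1.94 ± 0.30, above the sham range.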
